A study of Homo sapiens with 6 samples.

Results

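Of the 20683 gene symbols counted in the series, 10 encode the signalling unit that sits directly below interleukin-1 and Toll-like receptors, and these are described here, picked out by gene symbol. They are the kinases IRAK1, IRAK2, IRAK3 and IRAK4, the adaptors MYD88 and TOLLIP, and the ubiquitin ligases TRAF6, PELI1, PELI2 and PELI3. All 10 had a row in every count table. The cells were HT-1080, a human fibrosarcoma line, in MEM with fetal bovine serum. One group of 3 libraries came from cells given SLV-8472-01, which the series describes as an IRAK4 inhibitor, for 4 h at a labelled dose of 5 mM, and the other of 3 libraries from cells given 0.1% DMSO for 4 h. No label gives a stimulus such as interleukin-1 to either group. The dose is printed as labelled, since its unit could not be checked and no dilution is stated.

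An activated interleukin-1 or Toll-like receptor binds MYD88, and MYD88 gathers IRAK4, IRAK1 and IRAK2 into a complex in which IRAK4 phosphorylates IRAK1. IRAK1 and the Pellino proteins then work with TRAF6, which builds ubiquitin chains that recruit the kinases leading to NF-kB and the MAP kinases. IRAK3, known best from macrophages, and TOLLIP restrain this route. The inhibitor targets the activity of a protein, so the mRNA of IRAK4 is no check of the labels.

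With the inhibitor, IRAK2 rose and the Pellino genes PELI2 and PELI3 fell, all by less than 2-fold. IRAK1, IRAK4, TOLLIP, TRAF6 and PELI1 were tested and not called, and IRAK3 and MYD88 had too few counts for a test. Called genes were thus 3 of the 8 tested members (edgeR quasi-likelihood test, adjusted p under 0.05), against 20.2% of all 11391 genes tested. In the same 3 members every library of one group lay beyond every library of the other, as it did in 36.3% of all genes tested. With 8 members these shares are a description, and they were not tested against those of all genes. The median log2 fold change was -0.09 over the 8 members and 0.00344 over all tested genes. Scaling by library totals gave 831 higher and 1714 lower genes in all, where TMM scaling gave 1130 higher and 1168 lower, and it called 3 members too.

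Libraries of the inhibitor group held 7644478 to 11427779 counts and those of the DMSO group 12003104 to 15336351. The shallower group was thus the inhibitor group, so the calls of members are also given in libraries thinned to the smallest total. Of 7 mesenchymal markers, 5 were at 5 CPM or more, and THY1 and S100A4 were below, so the line matched its label in most of them. None of 5 epithelial or 4 endothelial markers reached 5 CPM. Of the leukocyte markers reported here, PTPRC and CD3E had no count in any library and CD68 alone was above 5 CPM, with a summed level of the marker list of 333.8 to 354.8 CPM with the inhibitor and 250.5 to 300.1 CPM with DMSO. The part of these levels in the results was not tested.

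**Figure D1:**
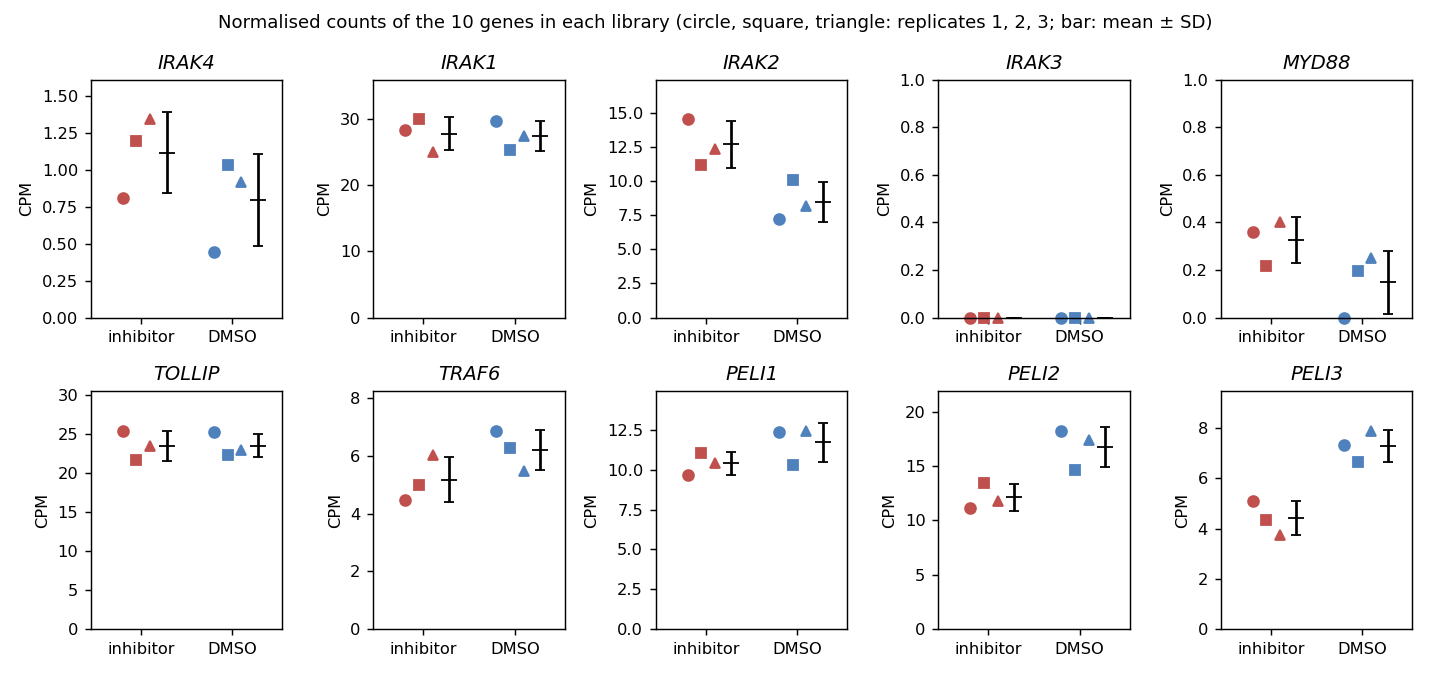
Normalised counts (CPM, y axis) of each of the 10 genes in the 3 inhibitor libraries (red, left) and the 3 DMSO libraries (blue, right), with the mean ± SD as a black bar. IRAK2 lies higher and PELI2 and PELI3 lie lower in every inhibitor library than in every DMSO library, and IRAK3 is at 0 throughout.

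The kinases are taken first. IRAK4, the kinase that starts phosphorylation in the complex, had 9, 11 and 10 raw counts in the inhibitor libraries, against 7, 16 and 11 in the DMSO libraries. The summed counts were 30 with the inhibitor and 34 with DMSO, which correspond to 1.05 CPM (exact Poisson 95% interval 0.71 to 1.5) and 0.807 CPM (0.559 to 1.13). These intervals overlap, and they cover counting error only. The fitted log2 fold change of IRAK4 was 0.46 with a 95% interval of -0.44 to 1.36 (adjusted p = 0.495), so neither a fall to 0.735-fold nor a rise to 2.56-fold lies outside what these counts allow. Leaving out DMSO replicate 1 brought it to 0.145 and leaving out DMSO replicate 2 to 0.715, with no call in either case (adjusted p = 0.867 and 0.384).

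IRAK1, the kinase that IRAK4 phosphorylates, had 28.2, 29.9 and 25.1 CPM with the inhibitor and 29.7, 25.2 and 27.3 CPM with DMSO. The groups overlapped fully. Its log2 fold change was 0.02, with a 95% interval of -0.23 to 0.27 (adjusted p = 0.924). Of the 8 tested members, IRAK1 and TOLLIP had the narrowest intervals.

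IRAK2, the related kinase that joins IRAK1 in the complex and is known to prolong its signal, had 162, 103 and 92 raw counts in the inhibitor libraries, against 113, 156 and 98 in the DMSO libraries. Scaled to library size these were 14.5, 11.2 and 12.3 CPM with the inhibitor and 7.19, 10.1 and 8.15 CPM with DMSO. Every inhibitor library was above every DMSO library, but the lowest inhibitor library (replicate 2) and the highest DMSO library (replicate 2) lay close together. The means were 12.7 ± 1.69 CPM and 8.47 ± 1.47 CPM (SD, n = 3 each), a rise of 1.5-fold with a 95% interval of 1.18 to 1.91 (log2 fold change 0.59 ± 0.17, SE, edgeR adjusted p = 0.0159). This call needed inhibitor replicate 1 (adjusted p = 0.102 when left out), DMSO replicate 1 (0.0813) and DMSO replicate 3 (0.051). It held in thinned libraries (0.013, in a single random draw).

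A ratio of counts within a library needs no scaling between libraries. The ratio of IRAK2 to IRAK1 was 0.514, 0.375 and 0.492 with the inhibitor and 0.242, 0.399 and 0.298 with DMSO. Here the groups overlapped, because inhibitor replicate 2 lay below DMSO replicate 2. The mean log2 difference was 0.57 (two-sided exact permutation p = 0.2, adjusted p = 0.2 over 3 ratios, where 3 against 3 libraries allow no p below 0.1).

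IRAK3, the member of the kinase family that restrains the route, had 0 counts in all 6 libraries. A floor of 3 counts per library corresponds to 0.263, 0.317 and 0.392 CPM in the inhibitor libraries. In the DMSO libraries it corresponds to 0.196, 0.203 and 0.25 CPM. IRAK3 mRNA below those levels could have been missed in a single library. Summed over a group, 0 counts have an exact Poisson 95% upper limit of 0.129 CPM with the inhibitor and 0.0875 CPM with DMSO. These limits cover counting error only. The annotation used here (GENCODE 29) places an antisense transcript across 244 of the exon bases of IRAK3.

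Both adaptors connect receptors to the kinases. MYD88, which bridges the receptor and IRAK4, had 4, 2 and 3 raw counts in the inhibitor libraries, against 0, 3 and 3 in the DMSO libraries. The summed counts of 9 with the inhibitor and 6 with DMSO correspond to 0.316 CPM (exact Poisson 95% interval 0.144 to 0.599) and 0.142 CPM (0.0523 to 0.31). The intervals overlap, and MYD88 stayed under the filter on low counts. Each count comes from an amplified part of the transcript, so a low count may reflect little mRNA or poor amplification, and these cannot be told apart. In RNA from whole cultures, fewer cells with a transcript and less of it per cell cannot be told apart either.

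TOLLIP, a ubiquitin-binding protein of endosomes that binds IRAK1 and restrains it, had 25.5, 21.6 and 23.4 CPM with the inhibitor and 25.3, 22.4 and 23.0 CPM with DMSO. The groups overlapped fully, with a log2 fold change of -0.00108 and a 95% interval of -0.26 to 0.26 (adjusted p = 0.996). On the linear scale the interval ran from 0.836-fold to 1.19-fold.

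**Figure D2:**
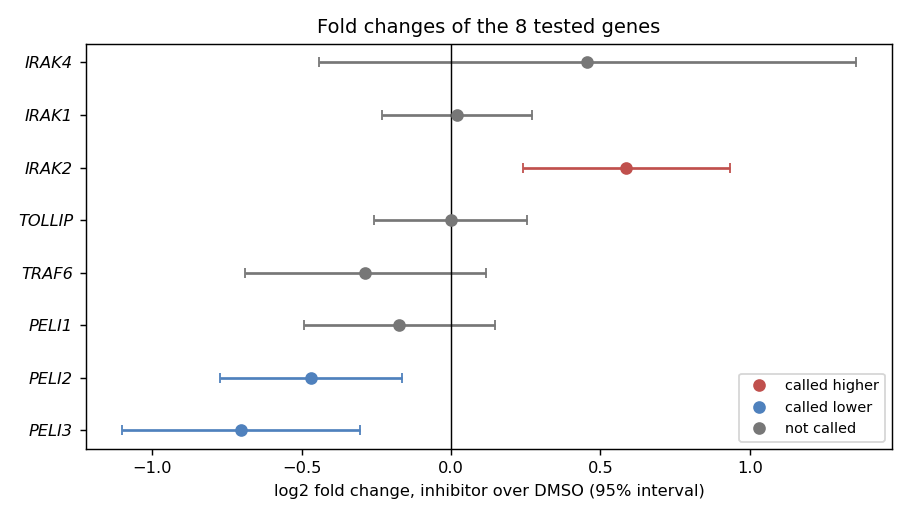
log2 fold change (x axis, inhibitor over DMSO) of the 8 tested genes, with 95% intervals from the edgeR fit over all genes. The intervals of IRAK2 (0.24 to 0.93), PELI2 (-0.77 to -0.16) and PELI3 (-1.10 to -0.30) leave out 0, and that of IRAK4 is the widest.

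The ubiquitin ligases come next. TRAF6, which builds the chains that carry the signal to TAK1 and the IkB kinases, had 4.48, 5.00 and 6.03 CPM with the inhibitor and 6.87, 6.26 and 5.49 CPM with DMSO. The groups overlapped, because inhibitor replicate 3 lay above DMSO replicate 3. Its log2 fold change was -0.29, with a 95% interval of -0.69 to 0.12 (adjusted p = 0.318).

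The Pellino proteins are ligases that bind and ubiquitinate IRAK1. PELI1, the family member best known from Toll-like receptor signalling, had 9.68, 11.1 and 10.5 CPM with the inhibitor and 12.4, 10.3 and 12.5 CPM with DMSO. DMSO replicate 2 lay among the inhibitor libraries. Its log2 fold change was -0.17, with a 95% interval of -0.49 to 0.15 (adjusted p = 0.463).

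PELI2 had 11.1, 13.5 and 11.8 CPM with the inhibitor and 18.3, 14.7 and 17.4 CPM with DMSO. Every inhibitor library lay below every DMSO library. The means were 12.1 ± 1.22 CPM and 16.8 ± 1.88 CPM (SD, n = 3 each), so that PELI2 fell to 0.723-fold with a 95% interval of 0.586 to 0.893 (log2 fold change -0.47 ± 0.15, SE, edgeR adjusted p = 0.0274). This call needed inhibitor replicate 1 (adjusted p = 0.111 when left out), inhibitor replicate 3 (0.0517), DMSO replicate 1 (0.104) and DMSO replicate 3 (0.0732). It held in thinned libraries (0.0315).

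PELI3 had 57, 40 and 28 raw counts in the inhibitor libraries, against 115, 103 and 95 in the DMSO libraries. These were 5.11, 4.35 and 3.75 CPM with the inhibitor and 7.32, 6.65 and 7.90 CPM with DMSO. The groups stood clear of each other. The means were 4.40 ± 0.68 CPM and 7.29 ± 0.62 CPM (SD, n = 3 each), so that PELI3 fell to 0.615-fold with a 95% interval of 0.466 to 0.81 (log2 fold change -0.70 ± 0.19, SE, edgeR adjusted p = 0.0121). Unlike the other called members, PELI3 was called without any single library (adjusted p from 0.0172 to 0.0454) and in thinned libraries (0.0101).

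Exons of PELI3 share 119 bases with MRPL11, a mitochondrial ribosomal protein gene on the opposite strand, and 615 bases with the antisense gene AP002748.3 in the annotation used here. Those of PELI2 share 177 bases with a non-coding gene on the opposite strand. The strand setting of the counting is not given in the sources used here, so reads of these partners could have been counted with PELI3 or PELI2. MRPL11 was at 25.0 ± 1.72 CPM with the inhibitor and 27.9 ± 4.43 CPM with DMSO (SD, n = 3 each), with a log2 fold change of -0.16 and a 95% interval of -0.43 to 0.11 (adjusted p = 0.408). The part of MRPL11 in the PELI3 counts was not tested.

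The sequence just upstream of the start is shown for IRAK2, which rose, and PELI2, which fell, since these called members have bases there that no annotated exon covers. For PELI3 the windows upstream of both RefSeq starts are covered by exons of MRPL11 or of PELI3 itself for all but a few bases, and they are not printed. The stretches are on the plus strand of GRCh38.p14, from RefSeq, at chr3:10164669-10164864 for IRAK2 and chr14:56118161-56118374 for PELI2. They end where the first annotated exon begins, and no capitals occur because no searched motif was found.
IRAK2: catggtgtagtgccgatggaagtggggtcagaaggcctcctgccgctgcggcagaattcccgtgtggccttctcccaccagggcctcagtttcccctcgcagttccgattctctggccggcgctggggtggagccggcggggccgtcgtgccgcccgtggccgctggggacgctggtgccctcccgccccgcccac
PELI2: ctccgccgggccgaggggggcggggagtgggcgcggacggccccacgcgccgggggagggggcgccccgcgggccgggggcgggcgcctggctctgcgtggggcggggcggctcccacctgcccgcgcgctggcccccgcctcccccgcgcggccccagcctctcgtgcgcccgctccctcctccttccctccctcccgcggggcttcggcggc
Of the bases shown, 71.4% are G or C for IRAK2 and 86.5% for PELI2. Over the full 250 bases upstream the shares were 72% and 85.2%, where 35116 RefSeq starts had a median of 58%. Shares above the median were not limited to these members. They were 82.4% for IRAK1, 69.6% for TRAF6, 68.4% for IRAK3, 64.4% for MYD88, 62.4% for PELI1 and 61.6% for IRAK4. The starts of TOLLIP had 77.2% and 59.2%. Those of PELI3 had 58%, which is the median, and 70.8%. Both strands of the 250 bases upstream of the 12 starts of the 10 members were searched for the NF-kB consensus motif, the AP-1 motif TGANTCA, the cyclic AMP response motif TGACGTCA, the motif TGATGNAA of C/EBP-ATF dimers and the E2F motif TTTGGCGC. A match was found in 1 window, an NF-kB consensus 211 bases before the second start of PELI3. Over all starts the shares with a match were 5.21% for NF-kB, 6.57% for TGANTCA, 1.65% for TGACGTCA, 3.14% for TGATGNAA and 0.55% for TTTGGCGC. A match of letters is not a binding site, and its absence says only that these letters are not in the window.

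Within a library, PELI3 had 0.528, 0.392 and 0.359 counts for each count of PELI1 with the inhibitor and 0.59, 0.644 and 0.633 with DMSO. The groups did not overlap, and the mean log2 difference was -0.56. For PELI2, a ratio added after its call was seen, the values were 1.15, 1.22 and 1.13 with the inhibitor and 1.47, 1.42 and 1.39 with DMSO, again without overlap, with a mean log2 difference of -0.30. Each of these 2 ratios had a two-sided exact permutation p = 0.1, the smallest that 3 against 3 libraries allow, and an adjusted p = 0.15 over the 3 ratios. With 3 against 3 libraries, no difference can pass the threshold in this exact test.

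**Figure D3:**
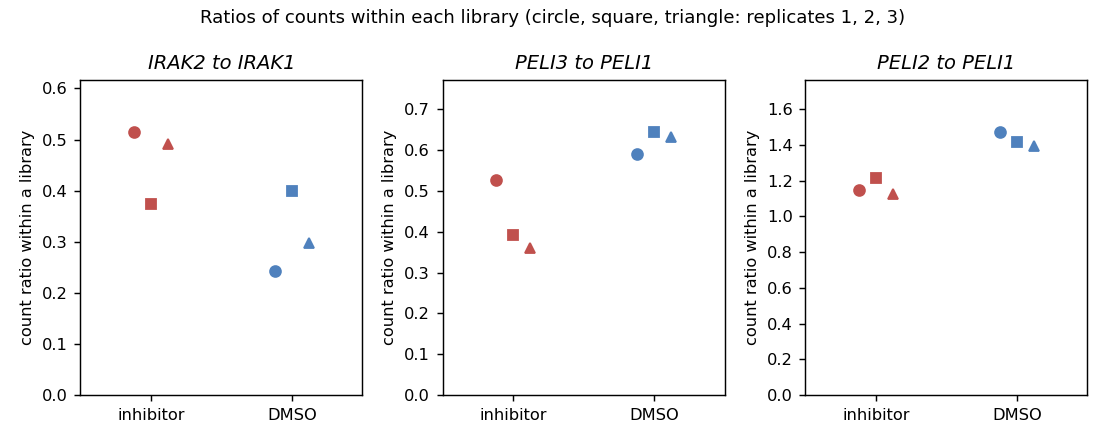
Ratio of raw counts within each library (y axis) for IRAK2 to IRAK1, PELI3 to PELI1 and PELI2 to PELI1, with the inhibitor libraries in red on the left and the DMSO libraries in blue on the right. The groups overlap in the first panel (0.375 to 0.514 with the inhibitor and 0.242 to 0.399 with DMSO) and stand apart in the other panels.

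Among the 2298 called genes of the series, the median absolute log2 fold change was 0.535. PELI3 was beyond that size and 666 called genes changed at least as much, IRAK2 was close to it with 954, and PELI2 was below it with 1470. None of the 3 members was called when the test asked for a change beyond 1.2-fold (edgeR glmTreat), with adjusted p = 0.0959 for IRAK2, 0.196 for PELI2 and 0.0616 for PELI3.

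**Figure D4:**
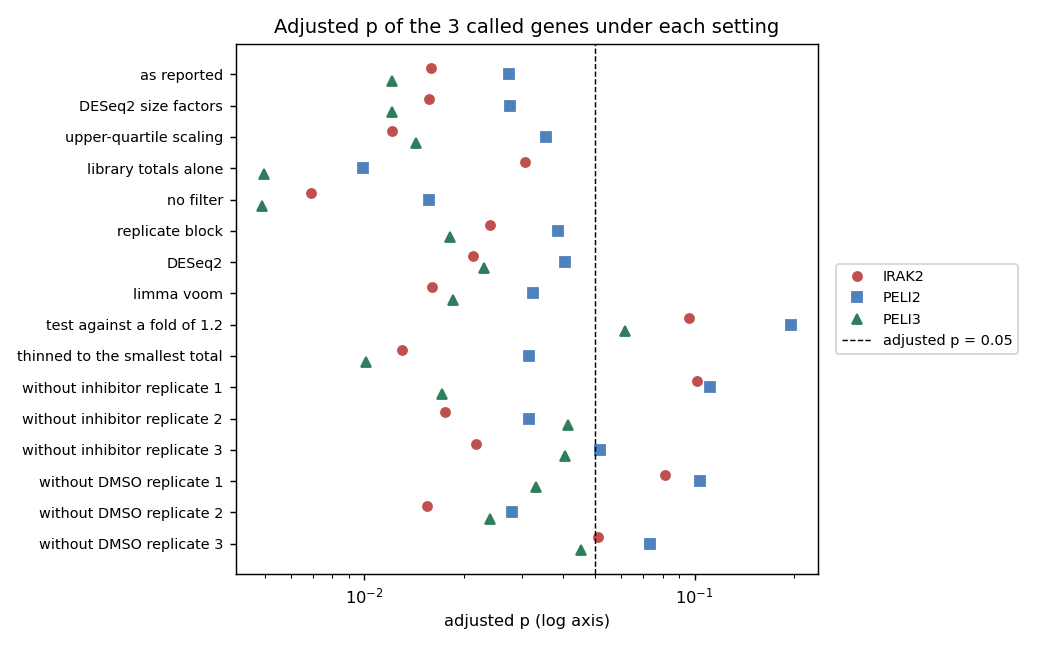
Adjusted p (x axis, log scale) of IRAK2, PELI2 and PELI3 as reported and under each of 15 other settings, with a dashed line at 0.05. PELI3 crosses the line only in the test against a fold of 1.2 (0.0616), while IRAK2 and PELI2 also cross it when single libraries are left out.

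Other genes that act in signalling from interleukin-1 and Toll-like receptors were taken from a list of 89, of which 86 had a row, 59 passed the filter on low counts and 3 were not analysed here. Of the 59 tested, 9 rose (15.3%) and 12 fell (20.3%), beside 9.92% higher and 10.3% lower among all genes tested, a difference that was not tested. The median log2 fold change was 0.0433. Under scaling by library totals these counts were 8 and 16. Leaving out inhibitor replicate 1 brought the rises to 5, and leaving out replicate 2 of either group brought the falls to 6. In the test against 1.2-fold, 3 genes were still higher (IL1B, IL1A and TNFAIP3) and 4 lower (TLR4, TRAF2, MAP3K3 and MAPK14). The calls of other pathway genes ended there, among them IKBKG (adjusted p = 0.0593), IKBKB (0.0534), ZC3H12A (0.061) and UBE2N (0.208). In thinned libraries MAP2K4 alone lost its call among the called pathway genes that the naming rule picks below.

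Upstream of the members, both tested ligand genes rose. IL1B, which encodes interleukin-1 beta, was at 184.9, 176.1 and 207.6 CPM with the inhibitor and 58.2, 48.8 and 38.3 CPM with DMSO, a rise of 3.90-fold (log2 fold change 1.96 ± 0.13, SE, edgeR adjusted p = 3.69e-10). IL1A, which encodes interleukin-1 alpha, rose by 1.81 ± 0.25 on the log2 scale, with means of 6.03 ± 1.18 CPM with the inhibitor and 1.72 ± 0.39 CPM with DMSO. The other 8 ligand genes were under the filter. Of 6 tested receptor genes, TLR4, the receptor of bacterial lipopolysaccharide, fell by 0.55 on the log2 scale, with means of 31.4 ± 2.23 CPM with the inhibitor and 45.9 ± 5.86 CPM with DMSO (adjusted p = 0.00256). Of the partners through which TLR4 binds its ligand, LY96 had no count and CD14 at most 2 counts in a library. IL1R1, the signalling receptor of interleukin-1, had 17, 14 and 16 raw counts in the inhibitor libraries, against 15, 13 and 20 in the DMSO libraries (log2 fold change 0.60, 95% interval -0.15 to 1.35, adjusted p = 0.26), and it is named for its role and not by the rule. The adaptor gene TIRAP, which places MYD88 at the membrane, was not called (0.54 ± 0.26, adjusted p = 0.153).

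At the level of TRAF6 and below, calls went both ways. Of 5 tested TRAF genes, TRAF2, best known as an adaptor of tumour necrosis factor receptors, fell by 1.13 on the log2 scale, with means of 2.55 ± 0.23 CPM with the inhibitor and 5.62 ± 0.73 CPM with DMSO (adjusted p = 0.0011). TRAF3, a ligase that restrains parts of the route, fell by 0.34, a call lost when replicate 2 or 3 of either group was left out (adjusted p between 0.0687 and 0.131). Of the 10 tested TAK1 and IkB kinase genes, 2 rose and 3 fell. IKBKG (0.72 ± 0.20) and IKBKB (0.56 ± 0.13), which encode parts of the IkB kinase, rose, and the kinase gene MAP3K3 fell by 0.70 on the log2 scale. The genes of the IkB kinase did not move together. CHUK, which encodes a further part of it, fell by 0.40 on the log2 scale (edgeR adjusted p = 0.0299). CHUK was not among the genes still lower in the test against 1.2-fold, and its other settings are not given.

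Of 12 tested ubiquitin enzyme genes, 1 rose and 2 fell. UBE2N encodes the conjugating enzyme with which TRAF6 and the Pellino proteins build chains. It fell by 0.40 on the log2 scale, with means of 107.3 ± 8.97 CPM with the inhibitor and 141.3 ± 1.70 CPM with DMSO (adjusted p = 0.0082). RBCK1, a subunit of the linear chain complex, rose by 0.51 ± 0.14, with adjusted p = 0.066 once inhibitor replicate 1 was left out and 0.121 once DMSO replicate 2 was. CUL1 fell by 0.32, and its call was lost without any one library other than DMSO replicate 3 (adjusted p from 0.055 to 0.129) and with upper-quartile scaling (0.0519).

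Of 14 tested genes that the list groups as deubiquitinases and other brakes, 4 rose and 1 fell. Whether each of them restrains the route was not tested. TNFAIP3, which edits ubiquitin chains of this route and is itself induced by NF-kB, rose by 1.01 ± 0.17, with means of 14.6 ± 2.75 CPM with the inhibitor and 7.26 ± 0.87 CPM with DMSO (adjusted p = 1.82e-04). ZC3H12A, an RNase that degrades cytokine mRNA, rose by 0.65 ± 0.17, with adjusted p = 0.105 once inhibitor replicate 1 was left out. OTULIN, which removes linear chains, fell by 0.49, a call lost with DESeq2 (adjusted p = 0.0519) and without any one library other than inhibitor replicate 1 (adjusted p from 0.068 to 0.0997). Of 8 tested genes of the MAP kinase arm, 0 rose and 3 fell. Among all genes tested, 9.92% were higher and 10.3% lower. The counts by role rest on 2 to 14 tested genes each, and none was tested against these shares. The p38 kinase gene MAPK14 fell by 0.62 on the log2 scale, with means of 25.2 ± 2.78 CPM with the inhibitor and 38.6 ± 4.49 CPM with DMSO (adjusted p = 0.00128). MAP2K4 fell by 0.47, a call that ended in thinned libraries (adjusted p = 0.0682) and when inhibitor replicate 1 or 3 or DMSO replicate 1 or 2 was left out (0.0598 to 0.172). MAP2K3 fell by 0.43, with adjusted p = 0.0538 once inhibitor replicate 2 was left out and 0.0766 once DMSO replicate 3 was.

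**Figure D5:**
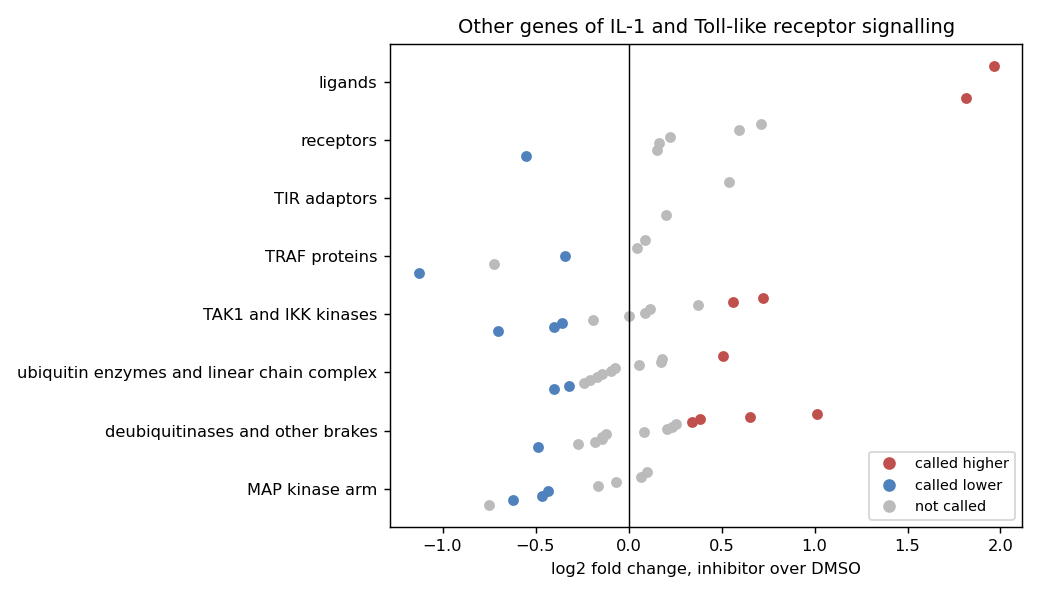
log2 fold change (x axis, inhibitor over DMSO) of the 59 tested genes of the pathway list by role (y axis), in red where called higher, blue where called lower and grey where not called. The ligands IL1B (1.96) and IL1A (1.81) lie furthest to the right and TRAF2 (-1.13) furthest to the left.

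For the 7 members with at least 5 CPM, the genes with the most similar profile over the 6 libraries were found among 9229 genes, by the root mean square difference of centred log2 CPM. With 6 libraries and so many genes, close profiles are found for any gene. Neighbours were picked for values like the member's in all 6 libraries, so similar fold changes and similar losses of calls follow largely from that choice. For IRAK2 the closest profiles were TCF7L2 (0.0429) and R3HDM2 (0.0606), with log2 fold changes of 0.59 and 0.52. For PELI2 they were UBR3 (0.0391) and FAM57A (0.0524), with -0.42 and -0.43, and for PELI3 they were NR2F1 (0.0569) and INPP5F (0.0631), with -0.72 and -0.64. Once inhibitor replicate 1 was left out, the threshold was missed by IRAK2 and its neighbours TCF7L2 and R3HDM2 (adjusted p = 0.0669 and 0.0956), and by PELI2 and its neighbours UBR3 and FAM57A (0.0873 and 0.0726). R3HDM2, UBR3 and FAM57A also missed it without DMSO replicate 1 or 3 (0.0505 to 0.0754). NR2F1 and INPP5F, like PELI3, were called without any single library. Among members that were not called, the closest profiles were WAC-AS1 (0.0272) and APEX1 (0.032) for IRAK1, COG1 (0.0214) and PRRC1 (0.0249) for TOLLIP, TAF9B (0.0246) and NUP107 (0.0429) for TRAF6, and DCAF5 (0.0264) and TBK1 (0.0278) for PELI1. TBK1, which encodes a kinase related to the IkB kinases, is the only one of these genes in the pathway list.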

How the data were processed

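Per the labels' protocols, the RNA-seq libraries are of the Ion AmpliSeq Transcriptome type, in which multiplex PCR copies a stretch of every targeted transcript. Sequencing was on an Ion Proton. The deposited values are raw counts per gene symbol, not normalised, with a table for each library. The submitters' processing notes name the tools HTSeq and DESeq2 1.20.0 and the build hg19, without their roles. How reads were aligned, with which annotation and whether strand was used in counting is not given in the sources used here. Counts depend on the amplified part, so levels of different genes were not ranked.

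The analysis used edgeR 4.0.16 in R 4.3.3 (filterByExpr, TMM factors of 0.973 to 1.05, glmQLFit and glmQLFTest, inhibitor minus DMSO, no covariates). The filter kept 11391 genes, 4605 had no count, and p was adjusted by Benjamini-Hochberg over all tested genes. Rose and fell refer to an adjusted p under 0.05. CPM are counts per 1000000 with TMM factors. The floors and the summed counts of IRAK3, IRAK4 and MYD88 with their Poisson intervals use library totals without these factors. SE is the absolute log2 fold change over the square root of F, and intervals use the degrees of freedom of the test. Profiles rest on log2 CPM after adding a prior count of 2. PCR reads are not independent molecules, so floors and Poisson intervals include counting error alone. Within a group, pairs of libraries differed beyond sampling noise (chi-square of 9.32 to 14.7 for each degree of freedom), and each was 1 replicate, described as biological in the series design.

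Alternatives were scaling by upper quartiles, DESeq2 size factors or library totals, no filter, a replicate block, DESeq2 1.42.0, limma voom (limma 3.58.1), a test against 1.2-fold, thinned libraries and each library left out. The procedure was run on counts simulated from means and dispersions fitted to these data, with far fewer changed genes than were called here. That run bears on the code and not on the calls. Members, gene lists and the naming rule were chosen with earlier results of these data known. The rule names all members, per role up to 3 called pathway genes with the largest change or else the 1 with the smallest p, and the 2 closest profiles per member with at least 5 CPM. Genes named outside it are MRPL11, IL1R1, LY96 and CD14, chosen for their link to a named gene. CHUK, TLR2, MAPK8 and TLR3 are also outside it, and were chosen after their values were seen. Sequences and starts are from RefSeq (GRCh38.p14), which matched all 10 members, and exon overlaps from GENCODE 29 on GRCh38. The files give no positions, so no coordinates were taken from them. One marker gene is not reported here.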

Additional observations from a re-analysis of the deposited data

How the results depend on the processing

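The 3 member calls held under scaling by DESeq2 size factors, upper quartiles or library totals, and with no filter, DESeq2, limma voom and thinned libraries. The number of members called was 0 in the test against 1.2-fold and 1 to 3 when single libraries were left out. In the test against 1.2-fold, 3 pathway genes were higher and 4 lower, and 829 genes were called in all. Leaving out single libraries gave 5 to 9 pathway genes higher, 6 to 10 lower and 1405 to 2246 genes called in all, the lowest without DMSO replicate 2. The log2 fold change of IRAK1 was near 0 and changed sign with library totals alone (-0.0510), and was -0.0431 to 0.0820 without single libraries. That of TOLLIP was 0.0225 with upper-quartile scaling, 0.000237 with limma voom, 0.0675 in thinned libraries and -0.0674 to 0.0555 without single libraries, so neither gene has a direction here. Without single libraries it was -0.40 to -0.19 for TRAF6 and -0.265 to -0.12 for PELI1. Without single libraries, the mean log2 difference ranged from 0.40 to 0.76 for IRAK2 to IRAK1, from -0.73 to -0.45 for PELI3 to PELI1 and from -0.33 to -0.27 for PELI2 to PELI1. The replicate block called 3 members, with adjusted p = 0.024 for IRAK2, 0.0385 for PELI2 and 0.0182 for PELI3. Deviations of same-numbered libraries from their group means correlated at 0.0318, -0.0161 and 0.00702 across genes, so the numbers give no sign of pairing. Without a filter, MYD88 had a log2 fold change of 1.14 with a 95% interval of -0.69 to 2.97 (adjusted p = 0.491), and IRAK3 gave no value. With under 20 counts per library in IRAK4 and under 5 in MYD88, depth limits what can be said of these genes.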

Other observations

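Further pathway genes had few counts, and those given here were chosen after their values were seen. TLR2, a receptor of bacterial lipoproteins, had 0 raw counts in each inhibitor library and 3, 1 and 2 in the DMSO libraries. MAPK8, which encodes a JNK kinase, had 2, 4 and 4 raw counts in the inhibitor libraries, against 12, 8 and 6 in the DMSO libraries. The inhibitor libraries were shallower, and scaled to library size the MAPK8 groups overlapped. Its levels were 0.179, 0.435 and 0.536 CPM with the inhibitor and 0.764, 0.517 and 0.499 CPM with DMSO. TLR3, a receptor of double-stranded RNA that signals without MYD88, had 14, 4 and 9 raw counts in the inhibitor libraries, against 12, 8 and 9 in the DMSO libraries. None of these was tested, since all were under the filter on low counts. Of the 21 receptor genes of the list, 7 had no count in any library.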
